A study of Homo sapiens with 9 samples.

Results

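The genes described here are 45 genes of the unfolded protein response and of protein folding in the endoplasmic reticulum (ER), of 59452 gene symbols or identifiers measured in MDA-MB-453 cells. They were listed by name, as known genes of this pathway, with earlier results of these data known. The numbers of genes called below are therefore not independent of the choice of genes. The list holds 9 stress sensors and transcription factors, 12 chaperones and co-chaperones, 6 disulfide isomerases and oxidases, 9 genes of ER-associated degradation and 9 genes of translocation, signal cleavage and glycosylation. All 45 passed the filter on low counts, as did 15528 genes in all.

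Secreted and membrane proteins enter the ER through the SEC61 channel, where they are glycosylated, folded by chaperones and cross-linked by disulfide isomerases. When unfolded proteins accumulate, the sensors ERN1 (IRE1), ATF6 and EIF2AK3 (PERK) start the unfolded protein response. ERN1 cuts a short intron out of *XBP1* mRNA, ATF6 is cleaved to a transcription factor, and EIF2AK3 phosphorylates eIF2α, which slows translation and favors *ATF4*. Spliced XBP1 and cleaved ATF6 raise genes for chaperones, translocation and degradation, and *HSPA5* (BiP) is the usual marker of the response. Breast cells are secretory cells, and *XBP1* is known to be high in luminal breast cancer.

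MDA-MB-453 is an established human breast cancer cell line, labelled as triple-negative and wild type. The 3 conditions were attached culture with vehicle, forced suspension with vehicle and forced suspension with AT-0174 at 10 µmol/L, for 48 hours. AT-0174 blocks TDO2 as well as IDO1, enzymes that start tryptophan breakdown. The vehicle was DMSO, and cells were kept in suspension by plates coated with poly-HEMA, a polymer to which they do not adhere. Each condition had 3 libraries, described as biological triplicates of this 1 cell line. AT-0174 in attached cells was not analysed here, so its effect was measured in suspension only.

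The libraries held between 36649997 and 48019126 estimated counts. All 9 luminal and apocrine markers examined passed the filter, and their summed level was 4313 to 4495 TPM (the length-scaled transcript abundance) in attached cells, 4728 to 4909 in suspended cells with vehicle and 4596 to 4955 with AT-0174. *ERBB2* was at 398 to 436 TPM, whereas *ESR1* did not exceed 0.141 TPM. *LUM*, *DCN*, *CD3E* and *MS4A1*, markers of fibroblasts and leukocytes, had 0 counts in all 9 libraries. However, 1 of the 7 fibroblast markers and 1 of the 6 leukocyte markers examined passed the filter. These were *COL1A1* at 51.5 to 66.0 TPM and *CD68* at 1.3 to 4.6 TPM. Mitochondrially encoded genes took 7.56 to 9.32% of the counts in attached cells, 4.05 to 4.34% in suspended cells with vehicle and 3.73 to 5.51% with AT-0174. This share moved with the culture condition, and its part in the results was not tested. In bulk RNA, fewer cells that express a gene and less of its RNA per cell cannot be told apart.

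ERN1 splicing acts on 26 bases of the *XBP1* coding sequence, at chr22:28796128-28796153 (GRCh38, minus strand, in an exon of the unspliced transcript). The sequence is shown because the 2 main *XBP1* transcripts of the files differ by it. The capitals mark the 26 bases as placed by GENCODE release 44, and the lower-case flanks are 15 bases of exon on each side (chr22:28796113-28796168). Since bases repeat at both ends, 7 placements of the cuts give the same spliced product.
XBP1 intron: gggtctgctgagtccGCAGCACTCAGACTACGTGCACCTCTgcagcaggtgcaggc
With these bases, the open reading frame of the main unspliced transcript (XBP1-201, ENST00000216037) has 261 codons. Without them, the frame of XBP1-202 (ENST00000344347) shifts and has 376 codons, which is the form known as the active transcription factor.

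Cleaved ATF6 is known to act on the ER stress response element, which reads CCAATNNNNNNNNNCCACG. It was searched for on both strands of RefSeq promoters (GRCh38.p14), each holding the 250 bases before and the 50 after a gene's start. At least 1 promoter was given for 42 of the 45 genes, and *DERL1*, *DERL3* and *PDIA3* had none. Of the 42, 8 genes held the element, against 25 of all 27305 genes, or 0.0916%. The matches are shown because the values of these 8 genes are compared below, with the fixed bases in capitals and read in the direction of the element.
XBP1: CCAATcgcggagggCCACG
HSPA5: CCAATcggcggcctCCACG
HSP90B1, upstream match: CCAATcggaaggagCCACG
HSP90B1, downstream match: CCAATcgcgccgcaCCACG
CALR: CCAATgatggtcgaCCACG
CANX: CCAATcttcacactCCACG
CRELD2: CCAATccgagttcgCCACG
PDIA6: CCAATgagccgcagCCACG
ERO1B: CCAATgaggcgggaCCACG
The matches in *CALR*, *CRELD2* and *ERO1B* and the downstream match of *HSP90B1* lie on the strand opposite to the gene. The match of *XBP1* runs from base -52 to base -34 before the RefSeq start. The 100 bases before the outermost annotated start of the *XBP1* gene in GENCODE (chr22:28800598-28800697, minus strand) are printed. The fixed bases of this match are in capitals.
XBP1 promoter: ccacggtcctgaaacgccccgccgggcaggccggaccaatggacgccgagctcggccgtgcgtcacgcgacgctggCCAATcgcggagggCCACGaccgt
A second motif, TGACGTG, the core of the unfolded protein response element, was held by the promoters of *HYOU1*, *DNAJC10*, *SEC61A1*, *SSR3* and *SRP19*, 5 of 42 genes, against 2.40% of all genes. The shorter CCACG, which is part of the first motif, was held by 31 of the 42 and by 42.1% of all genes. A match is a stretch of letters and does not show that a factor binds there.

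Levels of different genes were compared per length, as TPM summed over the transcripts of each gene, in attached cells (mean ± SD, n = 3). *XBP1* was the most abundant of the 45 with 1364 ± 44.8 TPM, rank 72 among all genes. *CALR* (calreticulin) followed with 1064 ± 42.8 TPM, and *PDIA3* and *P4HB*, disulfide isomerases, had 731 ± 33.2 and 704 ± 22.1 TPM. The libraries of *PDIA3* and *P4HB* overlapped, so their order was within the spread, as was the order of each neighbouring pair of *HSP90B1*, *SPCS2* and *HSPA5*, at 355 ± 21.7, 340 ± 16.6 and 316 ± 16.0 TPM.

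The sensors stood much lower. *ATF6B* had 69.3 ± 3.10 TPM, *ATF6* 36.7 ± 2.29, *EIF2AK3* 20.8 ± 3.76 and *ERN1* 5.82 ± 0.362. Only *DERL3*, a degradation factor, and *ERO1B*, an oxidase, were below *ERN1*, at 3.10 ± 0.693 and 2.13 ± 0.102 TPM. The transcript model that the files use for XBP1-202 has 1131 bases, its coding length, whereas GENCODE release 44 gives 1791, so the TPM of *XBP1* depends on that model.

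**Figure D1:**
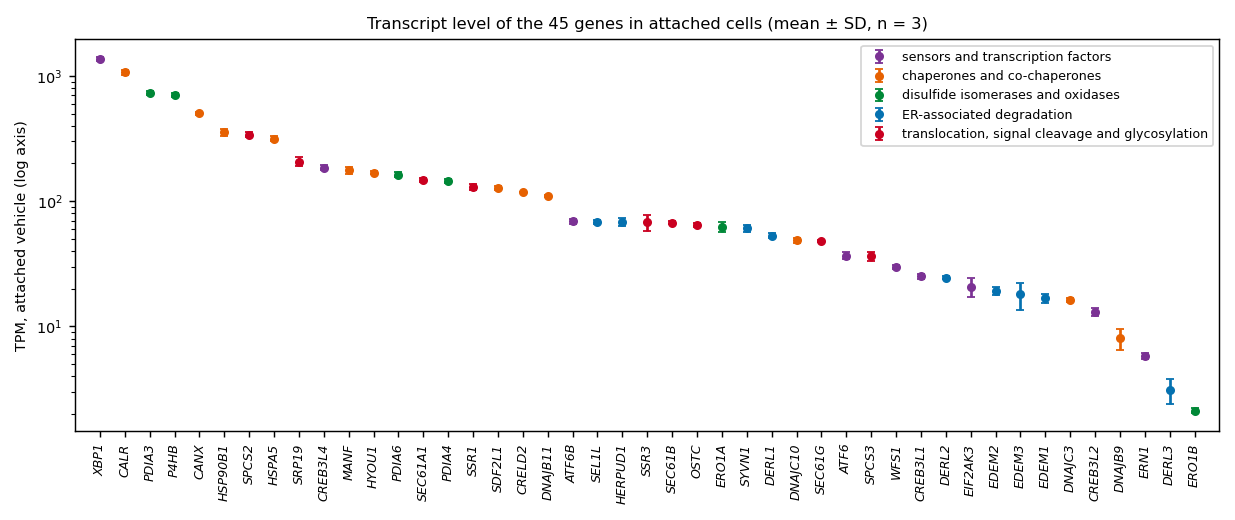
Transcript level of the 45 genes in the 3 attached libraries (points, mean; bars, SD) in TPM on a log axis, ordered by level and colored by role. XBP1 lies highest at 1364 TPM, followed by CALR, PDIA3 and P4HB, and ERN1, at 5.82 TPM, has only ERO1B and DERL3 below it.

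To ask how the genes respond to loss of attachment, suspended cells were compared with attached cells, both with vehicle. *XBP1* itself, *ATF6* and 5 of 9 genes of translocation were higher in suspension, and 2 of 9 genes of degradation were higher and 1 lower. The chaperones and isomerases that mark ER stress mostly showed log2 fold changes near 0. Whether the pathway as a whole responded was not tested. Genes were called at a Benjamini–Hochberg adjusted p under 0.05 in edgeR's quasi-likelihood test over all tested genes. Of the 45 genes, 10 were higher and 1 was lower, where 10.4% of all tested genes were called higher and 10.8% lower. The median log2 fold change of the 45 was 0.04, and that of all tested genes was within 0.01 of 0. The changes were small, from −0.16 for *DERL3*, which was not called, to 0.37 for *XBP1*. The count depended on single libraries, since 6 genes were called without attached replicate 3 or suspended vehicle replicate 2, and 7 genes when suspended vehicle replicate 3 was left out. Calls over all tested genes fell as well, from 1620 higher and 1677 lower to 925 and 1010 without attached replicate 3. They fell to 922 and 1029 without suspended vehicle replicate 2, and to 1141 and 1164 without suspended vehicle replicate 3. With counts rebuilt from TPM, which takes differences in transcript length into account, 6 genes were called, all higher, and *ATF6*, *SYVN1*, *DERL1*, *SSR3* and *SPCS3* missed the threshold. Over all genes tested in that fit, 668 were called higher and 728 lower. Of the 34 genes not called, 30 had a 95% interval of the fold change within 1.2-fold in either direction, and 15 within 1.1-fold.

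**Figure D2:**
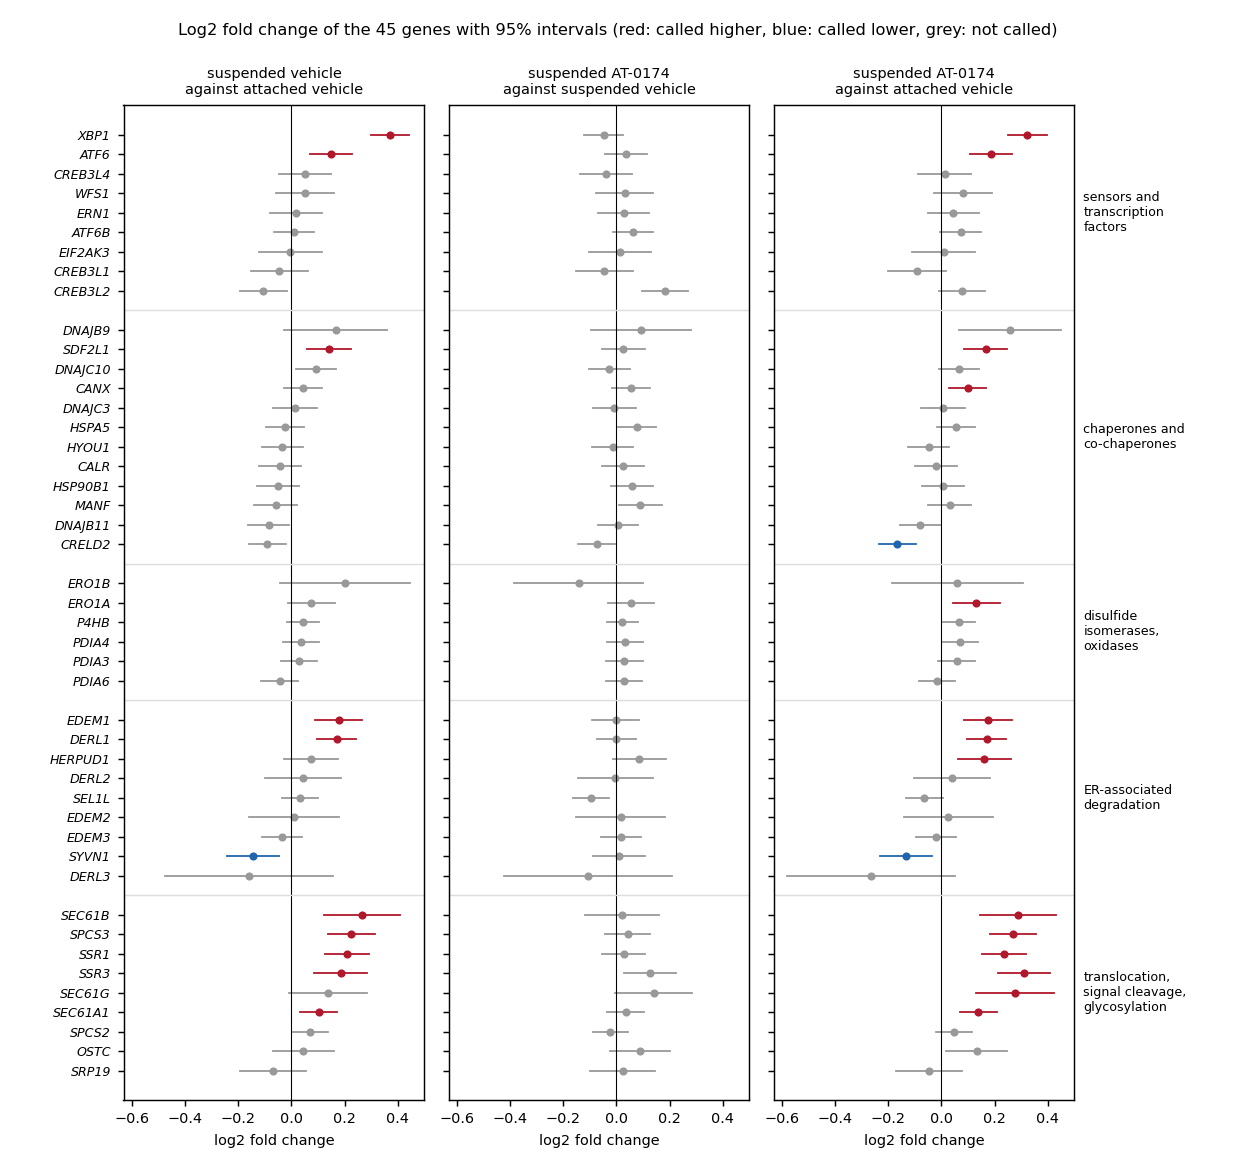
Log2 fold changes (points) with 95% intervals (lines) of the 45 genes in each of the 3 comparisons, grouped by role, with called genes in red (higher) and blue (lower). In the left panel 10 genes are red and 1 is blue, in the middle panel every gene is grey, and in the right panel 14 are red and 2 are blue.

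Among the sensors and transcription factors, 2 of 9 genes were higher in suspension (22.2%, against 10.4% of all tested genes) and none was lower. *XBP1*, the transcription factor of the ERN1 arm, had 1336, 1271 and 1271 CPM (counts scaled to library size, with TMM factors) in the attached libraries. It had 1667, 1673 and 1676 CPM in the suspended libraries with vehicle, and 1680, 1557 and 1613 CPM with AT-0174. All 6 suspended libraries lay above all attached ones, and the libraries with vehicle were within a narrow range. Such separation with vehicle alone was common over the 15528 tested genes. The suspended libraries lay entirely above the attached ones for 3020 of them and entirely below for 2900. Among the 45 genes these counts were 14 and 4. The log2 fold change of *XBP1* in suspension with vehicle was 0.37 (standard error 0.034, adjusted p = 2.6e-05, edgeR), a 1.29-fold rise.

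*ATF6*, the sensor that is cleaved in the Golgi, had 71.8, 67.0 and 67.9 CPM under attachment, 76.7, 77.2 and 75.2 CPM in suspension with vehicle, and 76.5, 79.2 and 79.4 CPM in suspension with AT-0174. Its groups of attached and suspended libraries did not overlap either, and the log2 fold change with vehicle was 0.15 (standard error 0.036, adjusted p = 0.0130).

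The other 2 sensors were not called. *ERN1* had 28.96, 28.97 and 31.1 CPM under attachment, 30.7, 29.9 and 29.5 CPM in suspension with vehicle, and 31.3, 30.9 and 29.7 CPM in suspension with AT-0174, with a log2 fold change of 0.02 (95% interval −0.08 to 0.11) in suspension. *EIF2AK3* had 44.3, 42.2 and 38.0 CPM under attachment, 41.2, 42.7 and 40.3 CPM in suspension with vehicle, and 40.4, 41.5 and 43.3 CPM in suspension with AT-0174, and its log2 fold change was within 0.01 of 0 (−0.12 to 0.11). In both genes the 3 groups overlapped. *ATF6B*, a relative of *ATF6*, *CREB3L1* and *CREB3L4*, membrane-bound transcription factors, and *WFS1* (wolframin) had log2 fold changes between −0.05 and 0.05 and were not called. *CREB3L2*, of the same family as *CREB3L1*, lay below the attached libraries in all 3 suspended libraries with vehicle (log2 fold change −0.11), but was not called either (adjusted p = 0.0829).

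The chaperones showed little change. *HSPA5*, the main ER chaperone, had 578, 585 and 551 CPM under attachment, 582, 551 and 554 CPM in suspension with vehicle, and 598, 592 and 590 CPM in suspension with AT-0174. The attached and suspended libraries with vehicle overlapped in CPM, and the log2 fold change was −0.02 with a 95% interval from −0.09 to 0.05. In TPM, which carry no TMM factors, *HSPA5* was at 298 to 328 under attachment and at 334 to 344 in suspension with vehicle. *HSP90B1* (GRP94), *CALR* and *HYOU1* had log2 fold changes of −0.05, −0.04 and −0.03, and *CANX* (calnexin) had 0.04; none of these was called. *SDF2L1*, a partner of HSPA5, was the only one of the 12 chaperones and co-chaperones called. It had 60.7, 62.0 and 60.1 CPM under attachment, 66.6, 67.6 and 67.3 CPM in suspension with vehicle, and 68.9, 71.1 and 65.2 CPM in suspension with AT-0174. The attached libraries lay below the rest, and *SDF2L1* rose by 0.14 on the log2 scale with vehicle (standard error 0.038, adjusted p = 0.0213). Without attached replicate 1 or 3, or suspended vehicle replicate 2 or 3, *SDF2L1* missed the threshold, with a highest adjusted p of 0.0685.

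*DNAJB11* and *CRELD2*, a co-chaperone and an ER stress-inducible folding factor, were below the attached libraries in all 3 suspended libraries with vehicle, with log2 fold changes of −0.09 each that were not called (adjusted p = 0.109 and 0.0625, edgeR). *DNAJB9*, a co-chaperone that restrains ERN1 and is a sensitive target of XBP1, had a log2 fold change of 0.17 with a wide 95% interval from −0.03 to 0.36.

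None of the 6 disulfide isomerases and oxidases was called in either direction by edgeR, DESeq2 or limma-voom, and 0 of the 6 had an unadjusted p under 0.05 in edgeR. The log2 fold changes of *PDIA3*, *PDIA4*, *PDIA6* and *P4HB* ran from −0.04 to 0.04. With counts rebuilt from TPM, that of *PDIA3* was 0.13 (adjusted p = 0.0735), and that of the co-chaperone *DNAJC10* was 0.22 (adjusted p = 0.0544) against 0.09 without rebuilding; neither was called. *ERO1A*, which reoxidizes the isomerases, had 0.08, and its relative *ERO1B*, at about 4 CPM, had 0.20 (−0.04 to 0.45).

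ER-associated degradation returns misfolded proteins to the cytosol, and 2 of its 9 genes were higher and 1 was lower. These are 22.2% and 11.1%, where all tested genes had 10.4% and 10.8%. *EDEM1*, which trims mannose from misfolded glycoproteins, had 67.8, 61.0 and 64.5 CPM under attachment, 72.0, 74.9 and 71.6 CPM in suspension with vehicle, and 73.4, 73.3 and 71.5 CPM in suspension with AT-0174. *DERL1*, a channel component, had 67.2, 70.3 and 67.4 CPM under attachment, 75.3, 78.3 and 77.1 CPM in suspension with vehicle, and 76.9, 77.9 and 75.9 CPM in suspension with AT-0174. Both genes were higher in every suspended library than in any attached one, with log2 fold changes of 0.18 (standard error 0.041, adjusted p = 0.0104) and 0.17 (standard error 0.034, adjusted p = 0.00473). *SYVN1* (HRD1), the ubiquitin ligase of the pathway, had 99.3, 98.7 and 111 CPM under attachment, 93.9, 92.4 and 94.0 CPM in suspension with vehicle, and 91.5, 96.6 and 94.0 CPM in suspension with AT-0174. It was lower in suspension by 0.14 on the log2 scale (log2 fold change −0.14, adjusted p = 0.0402), with attached replicate 3 standing highest. The fall of *SYVN1* missed the threshold without attached replicate 3 (log2 fold change −0.08), without any 1 of the suspended vehicle libraries, and without AT-0174 replicate 3, with a highest adjusted p of 0.147. *SEL1L*, its partner, had a log2 fold change of 0.03, and *HERPUD1*, an adaptor, 0.08; these were not called.

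Translocation, signal cleavage and glycosylation was the role with the most calls, 5 of 9 higher and none lower, with a median log2 fold change of 0.14. The 5 are 55.6% of the role, where 10.4% of all tested genes were higher. *SSR1* and *SSR3*, subunits of the translocon-associated protein complex, had log2 fold changes of 0.21 (standard error 0.038, adjusted p = 0.00301) and 0.19 (standard error 0.046, adjusted p = 0.0137). *SSR1* had 161, 152 and 147 CPM under attachment, 171, 180 and 183 CPM in suspension with vehicle, and 184, 178 and 182 CPM in suspension with AT-0174. *SSR3* had 103, 97.0 and 90.3 CPM under attachment, 105, 112 and 113 CPM in suspension with vehicle, and 121, 118 and 121 CPM in suspension with AT-0174. Both rose above the attached range in all suspended libraries, and *SSR3* was higher still in each library with AT-0174.

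*SPCS3*, a subunit of the signal peptidase, had 68.4, 66.2 and 67.0 CPM under attachment, 75.2, 80.3 and 80.2 CPM in suspension with vehicle, and 82.8, 77.4 and 82.7 CPM in suspension with AT-0174. Its log2 fold change was 0.23 (standard error 0.040, adjusted p = 0.00256). *SEC61A1* and *SEC61B*, subunits of the translocation channel, rose by 0.10 and 0.27 on the log2 scale (standard errors 0.032 and 0.066, adjusted p = 0.0374 and 0.0147). *SEC61A1* had 368, 367 and 349 CPM under attachment, 386, 394 and 385 CPM in suspension with vehicle, and 407, 386 and 400 CPM in suspension with AT-0174. *SEC61B* had 19.97, 19.6 and 19.4 CPM under attachment, 21.8, 25.3 and 23.6 CPM in suspension with vehicle, and 25.99, 23.7 and 22.2 CPM in suspension with AT-0174. Neither overlapped between attached and suspended cells.

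The remaining channel subunit, *SEC61G*, had 10.1, 9.79 and 10.4 CPM under attachment, 10.5, 11.4 and 11.4 CPM in suspension with vehicle, and 12.9, 12.3 and 11.5 CPM in suspension with AT-0174. It lay higher in each suspended library but was not called with vehicle (log2 fold change 0.14, adjusted p = 0.174). *SRP19*, of the signal recognition particle, had −0.07, and *SPCS2* and *OSTC*, of the signal peptidase and the oligosaccharyltransferase, had 0.07 and 0.05. Without attached replicate 3 or suspended vehicle replicate 2, 2 of the 9 genes of this role were called, without suspended vehicle replicate 3 there were 3, as there were with counts rebuilt from TPM. With single libraries left out, the calls lost were those of *SEC61A1*, which went when any 1 library of the comparison was left out (highest adjusted p = 0.127), of *SEC61B* without attached replicate 3 or suspended vehicle replicate 2 (0.0636), and of *SSR3* without these or without suspended vehicle replicate 3 (0.0546). With counts rebuilt from TPM, the calls lost were those of *SSR3* and *SPCS3* (adjusted p = 0.103 and 0.0674).

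**Figure D3:**
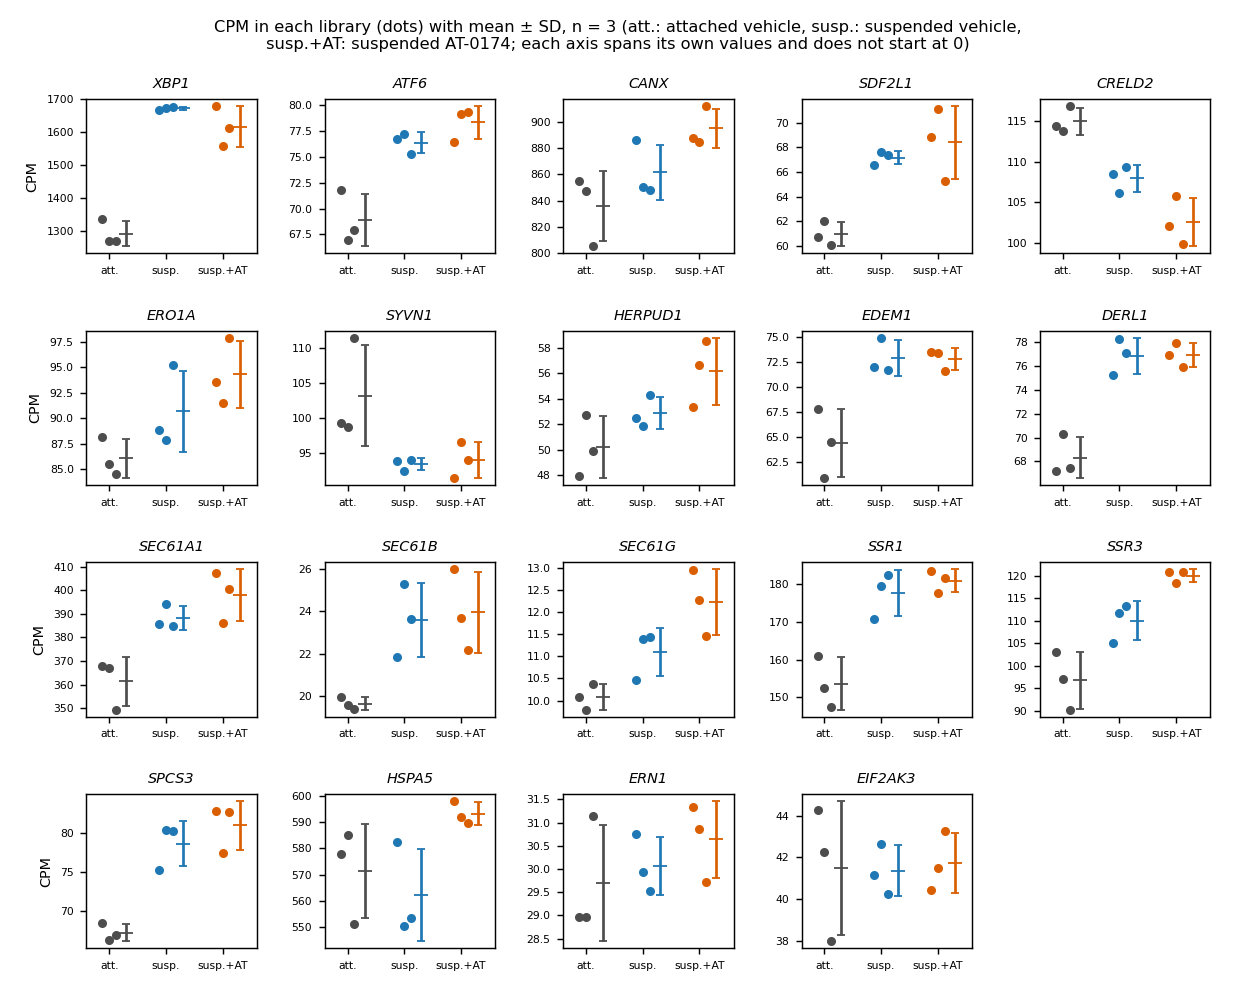
CPM in each library (dots) with the mean and SD of each condition (n = 3) for the 16 genes called in any comparison and for HSPA5, ERN1 and EIF2AK3; each axis spans its own values and does not start at 0. XBP1 steps from 1271 to 1336 CPM in attached cells to at least 1557 in all suspended libraries, whereas HSPA5, ERN1 and EIF2AK3 overlap between attached and suspended cells with vehicle.

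The 8 genes whose promoters hold the ER stress response element had no common direction. Only *XBP1* was called, whereas 5 of the 8 had negative log2 fold changes, and the median of the 8 was −0.03. The 1 call is 12.5% of the 8, where 10.4% of all tested genes were called higher and 10.8% lower. Over all tested genes, 7770 of 15528 log2 fold changes were negative. Of the 5 genes with TGACGTG, *SEC61A1* and *SSR3* were called higher (40%, against 10.4% of all tested genes), and the median was 0.09.

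The rise of *XBP1* was then divided between its transcripts. The main unspliced transcript had 696, 631 and 598 TPM under attachment, 891, 1004 and 986 in suspension with vehicle, and 953, 807 and 871 in suspension with AT-0174. The transcript without the 26 bases had 621, 629 and 638 TPM under attachment, 855, 719 and 791 in suspension with vehicle, and 776, 739 and 799 in suspension with AT-0174. Both were higher in every suspended library than in any attached one. In a fit over 66693 transcripts, the unspliced transcript rose by 0.51 on the log2 scale in suspension with vehicle (standard error 0.069, adjusted p = 0.0417, edgeR). For the spliced transcript the log2 difference was 0.25 (standard error 0.069), and it was not called (adjusted p = 0.160).

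The share of *XBP1* counts given to the spliced transcript was 32.3, 34.7 and 36.1% under attachment, 34.1, 27.9 and 30.5% in suspension with vehicle, and 30.6, 32.7 and 33.2% in suspension with AT-0174. The suspended mean with vehicle was 30.8 ± 3.15%, against 34.4 ± 1.91% in attached cells (SD, n = 3), a difference of −3.53 percentage points (exact two-sided permutation test, p = 0.20, adjusted over 3 comparisons 0.45). With AT-0174 the share was 32.2 ± 1.37%, which differed by 1.34 points from suspended cells with vehicle (exact permutation p = 0.60, adjusted 0.60) and by −2.19 points from attached cells (exact permutation p = 0.30, adjusted 0.45). None of these differences passed the threshold, and with 3 libraries in each group the smallest p this test can give is 0.10. Without suspended vehicle replicate 2, the difference between suspended and attached cells with vehicle was −2.04 points, and that between AT-0174 and vehicle in suspension changed sign to −0.149 points. Without attached replicate 3, AT-0174 differed from attached cells by −1.32 points. A larger spliced share in suspension was thus not seen in these libraries. Salmon divides reads shared by both transcripts by estimation, and the model of XBP1-202 holds only its coding length, so the absolute level of the share is uncertain.

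**Figure D4:**
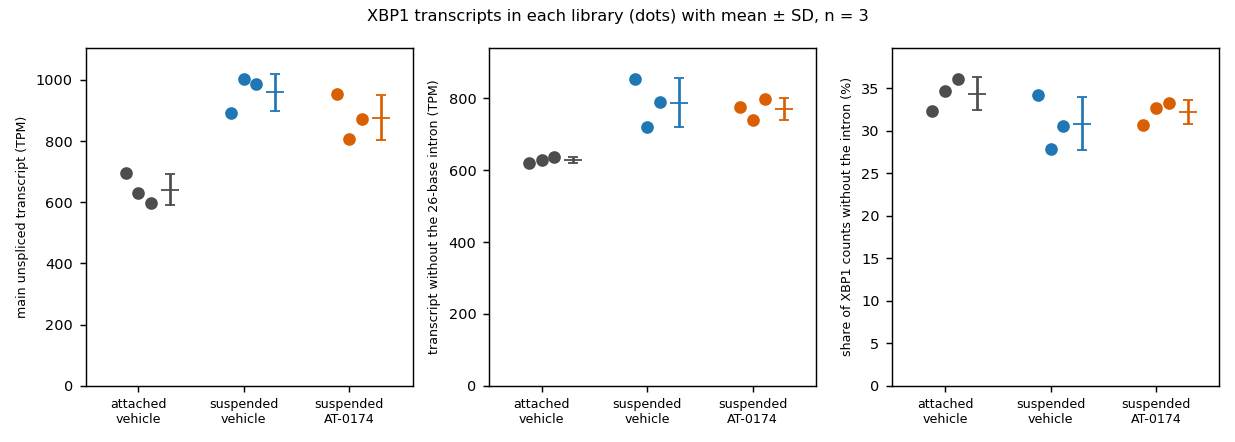
TPM of the main unspliced XBP1 transcript (left) and of the transcript without the 26-base intron (middle), and the share of XBP1 counts given to the latter (right), in each library (dots) with mean and SD (n = 3). Both transcripts are higher in suspension, and the share overlaps between the 3 conditions at 27.9 to 36.1%.

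To ask whether these genes differ with the inhibitor in suspension, AT-0174 was compared with vehicle in suspended cells. None of the 45 genes was called by edgeR in either direction, where 0.522% of all tested genes were called higher and 0.258% lower. An unadjusted p under 0.05 was found for 6 of the 45, and for 1401 of the 15528 tested genes. DESeq2 called 1 gene, *CREB3L2*, and limma-voom called 0. Over all tested genes, DESeq2 called 133 higher and 106 lower, where edgeR called 81 and 40 and limma-voom 84 and 43. The intervals were narrow: all 45 lay within 1.5-fold in either direction, 40 within 1.2-fold and 24 within 1.1-fold.

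The gene with the largest difference of the 45 was *CREB3L2*, shown with its libraries after its values were seen, a membrane-bound transcription factor of secretory cells. It had 67.2, 70.4 and 65.3 CPM under attachment, 65.0, 63.6 and 59.9 CPM in suspension with vehicle, and 71.4, 71.0 and 71.6 CPM in suspension with AT-0174. The libraries with AT-0174 lay above those with vehicle, and the log2 difference was 0.18 (standard error 0.040, adjusted p = 0.0621). Across 18 alternatives its adjusted p ran from 0.00279 to 0.601, and 2 of them passed the threshold, DESeq2 and edgeR with no filter on low counts.

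Libraries with AT-0174 lay entirely above those with vehicle for 6 of the 45 genes, *CREB3L2*, *ATF6B*, *HSPA5*, *MANF*, *SEC61G* and *SSR3*, and entirely below for *CRELD2* and *SEL1L*. Over all tested genes, these patterns were found for 7.75% and 7.66%. *HSPA5* was at 590 to 598 CPM with AT-0174 and at 551 to 582 with vehicle, a log2 difference of 0.08 (95% interval 0.01 to 0.15, adjusted p = 0.486). *MANF*, a secreted ER stress protein, was at 94.6, 96.1 and 98.1 CPM against 93.6, 89.5 and 88.3, a difference of 0.09 (adjusted p = 0.473). *SSR3* differed by 0.13 (adjusted p = 0.374) and *SEL1L* by −0.10 (adjusted p = 0.294). None of these reached the threshold.

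*XBP1* had a log2 difference of −0.05 between AT-0174 and vehicle (95% interval −0.12 to 0.02), *ATF6* of 0.04 (−0.04 to 0.11), *ERN1* of 0.03 (−0.07 to 0.12) and *EIF2AK3* of 0.01 (−0.10 to 0.13). The spliced *XBP1* transcript had 0.00 (standard error 0.068) and the main unspliced one −0.09 (standard error 0.069), and neither was called (adjusted p = 1 each).

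Suspended cells with AT-0174 were last compared with attached cells with vehicle, a comparison that shares its groups with both of the others and combines suspension with the drug. Here 14 of the 45 genes were called higher and 2 lower, where 12.2% of all tested genes were called higher and 11.8% lower, and the median log2 fold change was 0.06. *XBP1* was higher by 0.32 (standard error 0.034, adjusted p = 6.1e-05), *SSR3* by 0.31, *SEC61B* by 0.29, *SEC61G* by 0.28, *SPCS3* by 0.27 and *SSR1* by 0.24 on the log2 scale. In this comparison 6 of the 9 genes of translocation, signal cleavage and glycosylation were called higher.

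*CANX*, *ERO1A* and *HERPUD1* were called here, with smaller changes. *CANX*, a lectin chaperone, had 855, 847 and 805 CPM under attachment, 886, 851 and 848 CPM in suspension with vehicle, and 888, 885 and 912 CPM in suspension with AT-0174, a log2 fold change of 0.10 (adjusted p = 0.0430). *ERO1A* had 88.2, 85.5 and 84.5 CPM under attachment, 88.8, 87.9 and 95.3 CPM in suspension with vehicle, and 93.5, 91.5 and 97.9 CPM in suspension with AT-0174, a log2 fold change of 0.13 (adjusted p = 0.0312). *HERPUD1* had 47.9, 52.8 and 50.0 CPM under attachment, 52.5, 51.9 and 54.3 CPM in suspension with vehicle, and 53.3, 56.7 and 58.5 CPM in suspension with AT-0174, a log2 fold change of 0.16 (adjusted p = 0.0247). Whether these genes differ between the 2 suspended groups was tested above, and none was called there. *CRELD2* was lower, with 114, 114 and 117 CPM under attachment, 108, 106 and 109 CPM in suspension with vehicle, and 102, 106 and 99.8 CPM in suspension with AT-0174. Its log2 fold change was −0.17 (standard error 0.032, adjusted p = 0.00331), and *SYVN1* was lower by 0.13 on the log2 scale (log2 fold change −0.13, adjusted p = 0.0463). *HSPA5* was not called (0.05, 95% interval −0.02 to 0.13), and neither was *DNAJB9*, at 0.26 (adjusted p = 0.0504).

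Of these calls, *CANX* and *SYVN1* were each lost when 1 of 7 libraries was left out, with highest adjusted p-values of 0.150 and 0.180. *ERO1A* was lost without attached replicate 2 or 3 or AT-0174 replicate 1 or 3 (highest adjusted p = 0.128), *HERPUD1* without attached replicate 1 or 3 or AT-0174 replicate 2 or 3 (0.107) and *SEC61G* without AT-0174 replicate 1 (0.0534). With counts rebuilt from TPM, 12 genes were called, 10 of these 16 and also *DNAJC10* and *PDIA3*. The calls lost were those of *CANX*, *ERO1A*, *SYVN1*, *HERPUD1*, *DERL1* and *SPCS3*. Over all genes tested in that fit, 957 were called higher and 845 lower, against 1898 and 1826 without rebuilding.

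Reads of overlapping genes add a limit to some calls. Exons of 11 of the 16 genes called in any comparison overlap those of another gene, for example *SYVN1* (chr11:65121780-65134532, GRCh38) with *FAU* and *MRPL49*, *SEC61A1* (chr3:128051641-128071705) with *RUVBL1* and *CRELD2* (chr22:49918167-49927540) with *ALG12*. Whether counting used the strand was not given in the sources used here. Reads from the shared stretches of such pairs may therefore have gone to either gene. The exons of *XBP1* (chr22:28794555-28800597), *ATF6*, *SDF2L1*, *HERPUD1* and *SEC61B* overlap no other gene.

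Other genes of the pathway were read from 6 lists with 139 genes, of which 136 were tested. These lists were chosen with earlier results of these data known. In suspension with vehicle, 10.4% of all tested genes were called higher and 10.8% lower. With AT-0174 against attached cells, these shares were 12.2% and 11.8%. Calls over all tested genes fell without attached replicate 3 or suspended vehicle replicate 2 or 3, as given above. In suspension with vehicle, ER to Golgi transport had 11 of 24 genes higher and none lower, with a median log2 fold change of 0.09. *SEC23B* and *SAR1B*, of the COPII coat that buds vesicles from the ER, rose by 0.16 and 0.15 (adjusted p = 0.00341 and 0.00991). *TMED2*, a cargo receptor, rose by 0.13 (adjusted p = 0.00999). This count fell to 3 without attached replicate 3 or suspended vehicle replicate 2, to 5 without attached replicate 1 or suspended vehicle replicate 3, and to 2 with counts rebuilt from TPM.

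Among the other translocon, signal peptidase and oligosaccharyltransferase subunits, 7 of 28 were higher and 1 was lower, with a median of 0.08. These are 25% and 3.57%, where all tested genes had 10.4% and 10.8%. *OST4*, *DDOST* and *SRP9* rose by 0.16, 0.14 and 0.18 (adjusted p = 0.0113, 0.0136 and 0.0137). The gene that fell was *TUSC3*, an oligosaccharyltransferase subunit, with a log2 fold change of −0.25 (adjusted p = 0.00473). Without attached replicate 3, 1 gene of this list was higher.

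The list of other ER chaperones and oxidative folding had 8 of 26 genes higher and 2 lower (median 0.05). These are 30.8% and 7.69%, where all tested genes had 10.4% and 10.8%. *QSOX1*, a sulfhydryl oxidase, and *PDIA5*, a disulfide isomerase, each rose by 0.26 (adjusted p = 7.4e-04 and 0.00133), and *TMX1*, a membrane-bound isomerase, rose by 0.16 (adjusted p = 0.0136). *FKBP10*, a prolyl isomerase that acts on collagen, and *ERP29* had log2 fold changes of −0.26 and −0.15 (adjusted p = 0.00418 and 0.0274). Without attached replicate 3 or suspended vehicle replicate 3, 3 genes were higher, and without attached replicate 1 or suspended vehicle replicate 1 or 2, 5 were.

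Of the other genes of ER-associated degradation, 4 of 25 were higher and 2 were lower (median 0.05), which is 16% and 8%, where all tested genes had 10.4% and 10.8%. With counts rebuilt from TPM, 1 was higher and 1 was lower. *NGLY1*, which removes glycans from proteins leaving the ER, rose by 0.32 (adjusted p = 3.9e-04), *UGGT1*, the folding sensor of glycoproteins, by 0.21 (adjusted p = 0.00504) and *ERLEC1*, a lectin, by 0.14 (adjusted p = 0.0210). *UBE2G2*, a ubiquitin-conjugating enzyme, and *OS9*, a lectin, had log2 fold changes of −0.24 and −0.10 (adjusted p = 0.00373 and 0.0343). Without attached replicate 1 or suspended vehicle replicate 3, 2 genes were higher.

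In the EIF2AK3 arm with ATF4 and DDIT3 (CHOP), 3 of 16 tested genes were higher (18.75%, against 10.4% of all tested genes). None was lower, and the median was 0.04. The 3 higher genes were *SLC7A11*, a cystine transporter, with a log2 fold change of 0.56 (adjusted p = 3.5e-06), *TRIB3*, a pseudokinase, with 0.19 (adjusted p = 0.00304), and *PPP1R15B*, a phosphatase subunit that acts on eIF2α, with 0.12 (adjusted p = 0.0335). In suspension with AT-0174 against vehicle, *SLC7A11* was the only one of the 136 genes called by edgeR, with a log2 fold change of 0.65 (adjusted p = 2.5e-06). With counts rebuilt from TPM it was not called. Against attached cells, 5 genes of this list were higher and 3 lower with AT-0174 (31.25% and 18.75%, against 12.2% and 11.8% of all tested genes). *DDIT3*, the transcription factor CHOP, was among the lower genes with −0.34 (adjusted p = 0.0206). *SESN2* and *PHGDH* were the other 2 that were lower, and between 0 and 3 genes of the list were lower when 1 library was left out, with none lower without attached replicate 3 or AT-0174 replicate 1. The number of higher genes fell to 3 without attached replicate 3, to 2 without AT-0174 replicate 1 and to 2 with counts rebuilt from TPM, which left 1 lower.

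Among genes that process the sensors or ligate *XBP1*, 3 of 17 tested were higher and 1 was lower, with a median log2 fold change of −0.01. These are 17.6% and 5.88%, where all tested genes had 10.4% and 10.8%. *MAP3K5*, a stress kinase downstream of ERN1, rose by 0.18, *EIF2S1*, which encodes eIF2α, by 0.13 and *MBTPS2*, a protease that cleaves ATF6, by 0.21 (adjusted p = 0.00805, 0.0227 and 0.0370). *ERN2*, the second IRE1 gene, had a log2 fold change of −0.54 (adjusted p = 0.0250). Without attached replicate 3, 1 gene of this list was higher and none was lower.

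**Figure D5:**
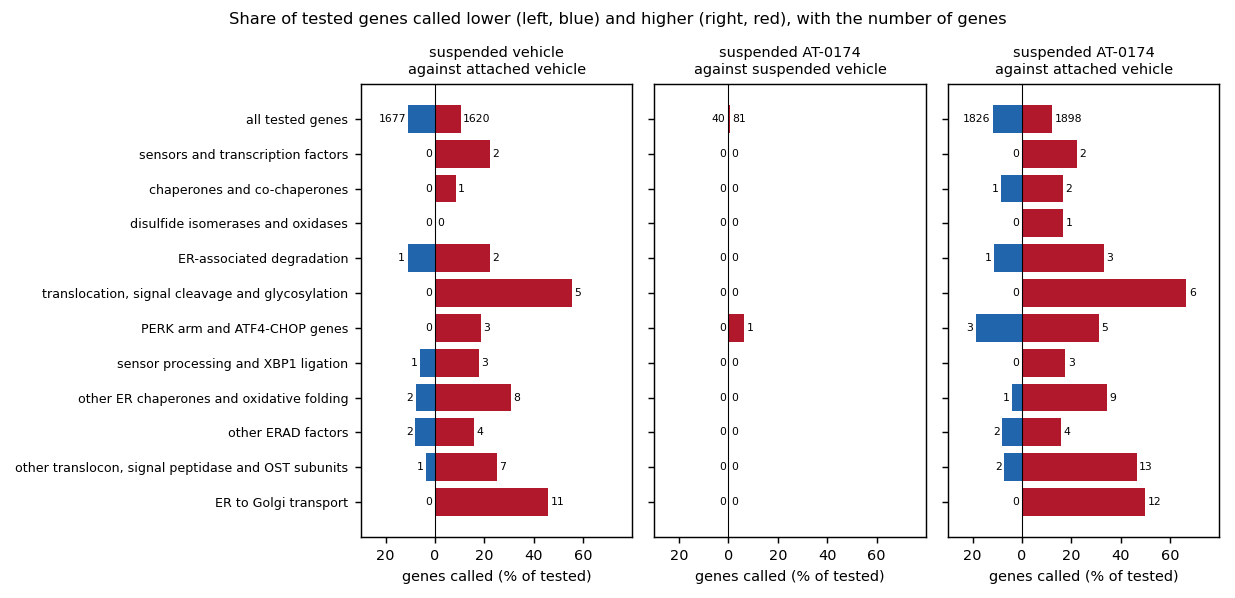
Share of tested genes called lower (left of 0, blue) and higher (right of 0, red) in the 3 comparisons, for all tested genes, the 5 roles and the 6 pathway lists, with the number of genes beside each bar. In suspension with vehicle, 5 of 9 translocation genes and 11 of 24 ER to Golgi genes are higher against 1620 of all 15528 genes, and with AT-0174 against vehicle 1 list gene is called.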

How the data were processed

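RNA libraries of MDA-MB-453 cells were sequenced in 9 samples, 3 per condition (the labels and the methods name different library kits). Per the submitters' processing notes and methods, the authors used bcl2fastq 2.20.0.422, Trim Galore 0.6.7 with cutadapt 3.4, STAR 2.7.9a and Salmon 1.10.1 in nf-core/rnaseq 3.12.0, and the notes also name Ensembl release 104. The deposited estimated counts per gene and per transcript came from Salmon and were rounded to whole numbers here. The deposited TPM values per transcript, which Salmon scales by effective transcript length, were summed per gene.

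Genes passing edgeR's filter on low counts were fitted with the quasi-likelihood test in edgeR 4.0.16 (R 4.3.3, TMM scaling) over all 9 libraries in 1 model, with Benjamini–Hochberg adjustment over all 15528 tested genes and a threshold of 0.05. The 3 comparisons share groups, so they are not independent. Shares of *XBP1* transcripts were compared by exact permutation tests. The script was tested on simulated data. Library totals of 36649997 to 48019126 set the precision. Alternatives were DESeq2 1.42.0, limma-voom (limma 3.58.1), DESeq2 size factors, other filters, counts rebuilt from TPM, the 6 libraries of a contrast alone, a replicate block, summing pseudogenes, a threshold of 0.01 and leaving out each library. The 45 genes and the pathway lists were chosen with earlier results of these data known. Library values were given for genes called in any comparison and for the sensors and *HSPA5*. Those of *CREB3L2* and *MANF* were given outside this rule, after they were seen. Of each list, up to 3 called genes per direction with the smallest p were named. Same-numbered libraries did not deviate together, so numbers were not taken as pairs.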

Additional observations from a re-analysis of the deposited data

How the results depend on the processing

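In suspension with vehicle, *XBP1*, *EDEM1* and *SSR1* passed the threshold of 0.05 under all 18 alternatives that kept it. At the threshold of 0.01, *EDEM1* was not called (adjusted p = 0.0104, edgeR). Under these alternatives, no called gene of the 45 changed sign in any comparison. The count of 11 called genes fell to 6 with counts rebuilt from TPM and to 4 at an adjusted p under 0.01, and ran from 6 to 11 when each library was left out. Calls over all tested genes fell from 1620 higher and 1677 lower to 668 and 728 with rebuilt counts. At an adjusted p under 0.01 they were 630 and 775. Between AT-0174 and vehicle in suspension the count of 0 became 1 with DESeq2 and 1 with no filter on low counts (*CREB3L2* both times). It stayed at 0 for every library left out. Calls over all tested genes in this comparison rose from 81 higher and 40 lower to 133 and 106 with DESeq2. With no filter they were 273 and 226. Between AT-0174 and attached cells 16 genes were called, and 9 passed under every alternative. The count was 12 to 16 when each library was left out and 11 at an adjusted p under 0.01. With counts rebuilt from TPM it was 12 (10 of the 16, with *DNAJC10* and *PDIA3* gained). Calls over all tested genes in this comparison fell from 1898 higher and 1826 lower to 957 and 845 with rebuilt counts. They were 926 and 913 at an adjusted p under 0.01, and 1121 and 1118 without AT-0174 replicate 1. The cause of these changes was not tested, apart from the stricter threshold and the smaller number of libraries.

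With a replicate block the counts were 11, 0 and 16, and in the last of these *CANX* was lost and *DNAJB9* gained. Since the numbers are not known to pair the samples, this is no paired design. The difference in the spliced *XBP1* share between AT-0174 and vehicle in suspension ran from −0.149 points (without suspended vehicle replicate 2, a change of sign) to 2.99 points (without suspended vehicle replicate 1). The differences from attached cells stayed negative for every library left out. Groups of 3 limit the precision of all values.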
